A study of Homo sapiens with 6 samples.

Results

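The genes described here are 10 liver genes whose protein products are secreted into blood plasma: ALB, AHSG, AMBP, C3, F2, FGA, FGB, FGG, VTN and SERPINA1. They are 10 of 19983 protein-coding genes and were chosen by name. Each gene was assigned, in each library by itself, every peak that overlapped its annotated span or came within 1000 bp of it. The tested libraries were 3 chromatin immunoprecipitation and sequencing (ChIP-seq) libraries, replicates 1 to 3, made with a V5 antibody from HepG2-TAF2-V5, a clone of a human liver cancer line that carries V5-tagged TAF2. The 3 control libraries came from the same clone, and their labels name them as input in one place and as IgG in another. Only the V5 libraries have peak lists in the data used here, so no background from control samples stands beside any value. All the groups carry the tag, and because the material is 1 clone, effects of the clone cannot be told apart from effects of the tagged protein. A peak does not measure expression, so the identity of the cells could not be checked against marker levels.

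TAF2 belongs to TFIID, a multi-subunit complex that recognises core promoters and helps to place RNA polymerase II at the transcription start. Hepatocytes make most of the proteins of plasma, and the genes for them are transcribed at high rates under the control of liver-enriched factors such as HNF4, FOXA and C/EBP proteins. HepG2 cells have kept the secretion of many of these proteins.

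TAF2-V5 peaks lay at 7 of the 10 genes in at least 2 libraries: AHSG, AMBP, C3, F2, FGG, SERPINA1 and VTN. ALB, FGA and FGB had no peak in any library, so the count with a peak in any library was also 7, against 8.67% of all protein-coding genes. Of all protein-coding genes, 3.76% had a peak in at least 2 libraries by the same rule, and among the 10970 genes whose span lay in the range of the 10 genes (3024 to 42947 bp) the share was 2.77%. The 10 genes were picked with earlier results of these lists known, so their count is a description and carries no test. Replicate 3 had a peak at all 7 genes, replicate 2 at 5 (AHSG, AMBP, C3, F2 and SERPINA1) and replicate 1 at 3 (AMBP, FGG and VTN), against 4.87%, 5.75% and 3.7% of all protein-coding genes in replicates 3, 2 and 1. AMBP alone had a peak in all 3 libraries, as did 1.9% of all protein-coding genes. Every other gene of the 7 therefore depended on replicate 3 and one further library: without replicate 3 the count with peaks in both remaining libraries was 1 (AMBP), without replicate 2 it was 3 (AMBP, FGG and VTN), and without replicate 1 it was 5.

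**Figure D1:**
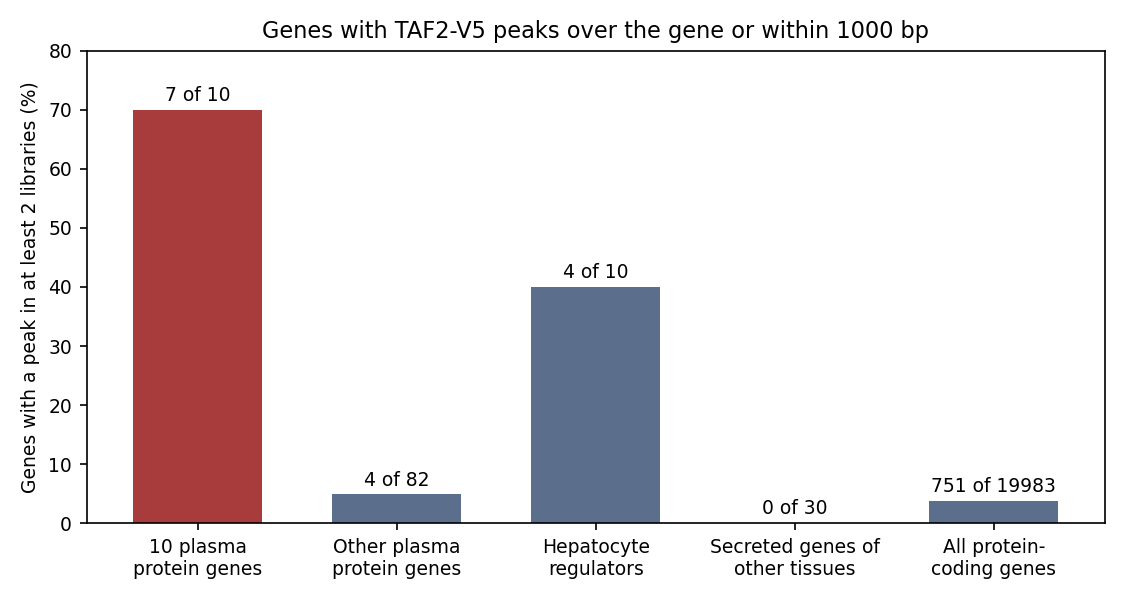
Share of genes (%) with a TAF2-V5 peak over the gene or within 1000 bp in at least 2 of 3 libraries, with the number of genes above each bar. The 10 plasma protein genes reached 7 of 10, against 4 of 82 other plasma protein genes, 4 of 10 hepatocyte regulators, 0 of 30 secreted genes of other tissues and 751 of 19983 protein-coding genes. The genes were listed with earlier results known, so the bars are a description. For so small a set, 0 of 30 is near the share of all protein-coding genes.

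The 7 genes held 15 peaks, each gene having 1 peak per library in which it was found. No other annotated gene lay within 1000 bp of any of the 15 peaks (0 of all annotated genes, coding or noncoding). The peaks were narrow, 153 to 363 bp wide. Transcription starts and strands were taken from the RefSeq promoter table of GRCh38.p14, which matched 9 of the 10 genes and not C3. At the 6 genes with a known start, all 13 summits lay upstream of the nearest annotated start, at distances of 74 to 816 bp with a median of 173 bp, and 5 of the peaks covered the start itself. These 13 summits are repeat calls at 6 genes in different libraries, not 13 separate places. Among all peaks within 1000 bp of a start of a protein-coding gene, the summit was upstream in 57.1% (137 of 240) in replicate 1, 66.1% (238 of 360) in replicate 2 and 64.6% (268 of 415) in replicate 3. Of the genes with peaks in at least 2 libraries and a known start, 6 of the 6 plasma protein genes had them within 1000 bp of a start, against 37.7% (219 of 581) of all such protein-coding genes and 55.0% (133 of 242) of those in the same range of spans. The comparison within that range of spans was added once the values were known. Peaks within 1000 bp of a start in at least 2 libraries were present at 1.39% of the 15812 protein-coding genes with a start in the table. At these 6 genes no library had a peak inside the gene away from a start or at the 3′ end.

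**Figure D2:**
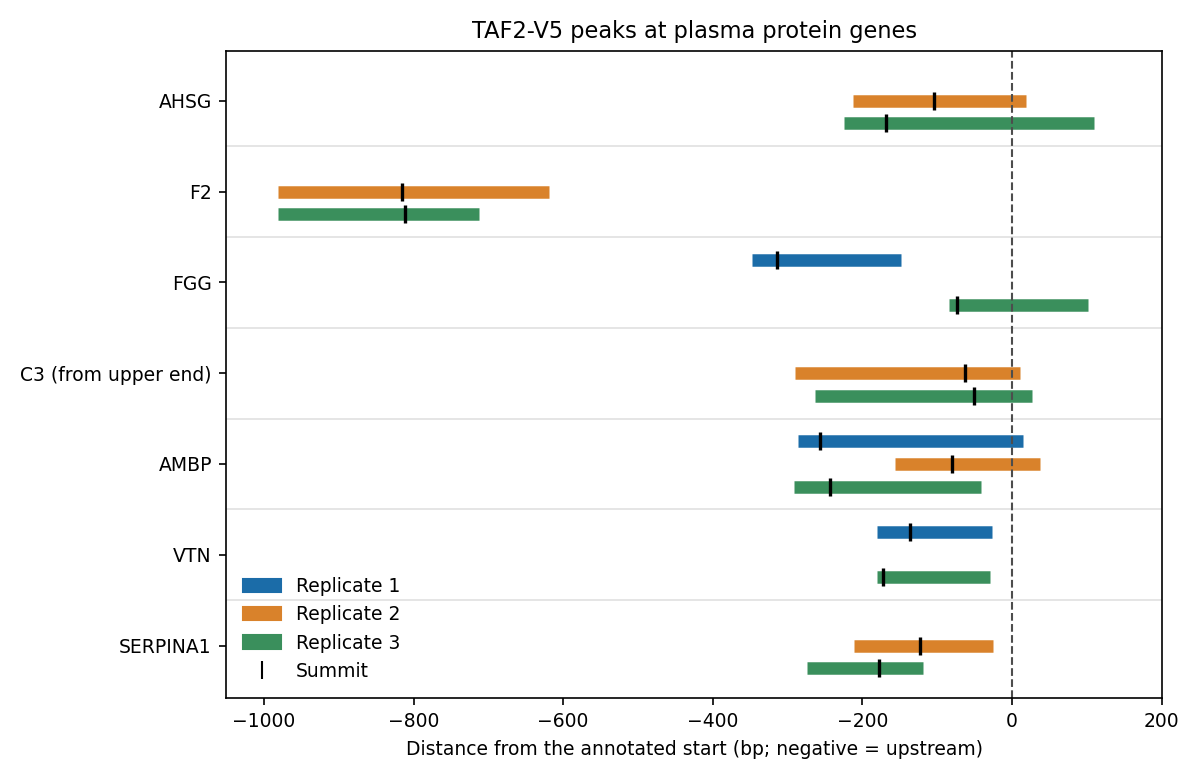
TAF2-V5 peaks (bars, coloured by replicate) and summits (black ticks) at 7 plasma protein genes, plotted by distance from the annotated start in bp, with upstream to the left; C3 is plotted from its upper annotated end, with the outside of the gene to the left. Summits at the 6 genes with a known start lay 74 to 816 bp upstream, and the peaks at F2 lay farthest from the start.

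The RefSeq promoter windows under these peaks run from 250 bases before the start to 50 after it. Windows that peaks of at least 2 libraries touched are shown for AHSG, AMBP, VTN, SERPINA1 and FGG, because they hold the DNA recovered with the tagged protein, and those of ALB and FGB are shown as windows of the same kind without a peak. Each reads 5′ to 3′ on the strand of the gene, the start is base 251, and capitals mark bases inside peaks of at least 2 libraries. The windows are chr3:186612810-186613109 (plus strand) for AHSG, chr9:114078251-114078550 (minus) for AMBP, chr17:28370258-28370557 (minus) for VTN, chr14:94388553-94388852 (minus) for SERPINA1, chr4:154612607-154612906 (minus) for FGG, chr4:73404037-73404336 (plus) for ALB and chr4:154562730-154563029 (plus) for FGB, on GRCh38.p14.
AHSG: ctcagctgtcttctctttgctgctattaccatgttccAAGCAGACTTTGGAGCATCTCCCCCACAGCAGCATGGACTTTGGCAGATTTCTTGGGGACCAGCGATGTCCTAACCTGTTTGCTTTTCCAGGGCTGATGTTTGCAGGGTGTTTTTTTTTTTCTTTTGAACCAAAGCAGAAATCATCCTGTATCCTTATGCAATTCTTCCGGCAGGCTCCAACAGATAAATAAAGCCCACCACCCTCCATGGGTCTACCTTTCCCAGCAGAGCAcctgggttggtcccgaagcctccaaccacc
AMBP: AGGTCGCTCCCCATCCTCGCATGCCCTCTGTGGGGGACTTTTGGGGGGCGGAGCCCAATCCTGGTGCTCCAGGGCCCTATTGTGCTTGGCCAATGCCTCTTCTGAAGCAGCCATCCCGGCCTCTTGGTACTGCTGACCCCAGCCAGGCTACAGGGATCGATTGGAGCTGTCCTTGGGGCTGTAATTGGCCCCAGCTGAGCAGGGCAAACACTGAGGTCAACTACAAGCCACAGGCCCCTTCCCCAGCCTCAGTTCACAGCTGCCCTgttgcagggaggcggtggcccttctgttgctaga
VTN: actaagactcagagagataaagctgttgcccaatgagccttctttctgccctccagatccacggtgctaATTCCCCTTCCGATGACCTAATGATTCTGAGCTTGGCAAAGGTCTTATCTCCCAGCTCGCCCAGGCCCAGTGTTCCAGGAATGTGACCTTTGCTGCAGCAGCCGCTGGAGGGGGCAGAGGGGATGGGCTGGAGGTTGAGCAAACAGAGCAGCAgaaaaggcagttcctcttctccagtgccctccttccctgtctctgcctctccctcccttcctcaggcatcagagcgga
SERPINA1: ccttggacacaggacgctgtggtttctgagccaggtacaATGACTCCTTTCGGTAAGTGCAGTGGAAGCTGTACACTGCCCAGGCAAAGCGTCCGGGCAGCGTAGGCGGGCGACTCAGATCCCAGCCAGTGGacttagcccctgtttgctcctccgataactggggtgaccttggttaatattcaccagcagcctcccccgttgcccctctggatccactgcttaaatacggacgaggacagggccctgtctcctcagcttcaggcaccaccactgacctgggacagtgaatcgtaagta
FGG: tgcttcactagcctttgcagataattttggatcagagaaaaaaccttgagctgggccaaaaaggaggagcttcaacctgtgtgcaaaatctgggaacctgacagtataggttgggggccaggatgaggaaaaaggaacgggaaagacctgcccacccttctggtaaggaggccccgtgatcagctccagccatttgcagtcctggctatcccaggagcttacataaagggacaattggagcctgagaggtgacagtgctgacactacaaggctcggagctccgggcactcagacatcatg
ALB: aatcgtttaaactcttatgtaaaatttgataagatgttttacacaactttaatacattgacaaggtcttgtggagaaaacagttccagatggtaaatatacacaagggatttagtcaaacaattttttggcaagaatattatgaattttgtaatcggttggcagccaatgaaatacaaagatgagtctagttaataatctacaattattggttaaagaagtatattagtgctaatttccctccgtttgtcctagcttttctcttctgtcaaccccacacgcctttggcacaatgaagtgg
FGB: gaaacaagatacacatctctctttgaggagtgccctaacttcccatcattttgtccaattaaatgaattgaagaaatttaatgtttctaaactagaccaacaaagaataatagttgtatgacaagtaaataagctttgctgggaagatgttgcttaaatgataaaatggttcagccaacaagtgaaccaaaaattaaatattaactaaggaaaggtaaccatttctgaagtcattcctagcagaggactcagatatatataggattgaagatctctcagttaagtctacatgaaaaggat
Bases inside peaks of at least 2 libraries numbered 266 of 300 at AMBP, 233 at AHSG, 153 at VTN and 93 at SERPINA1. At FGG 238 bases lay inside a peak of 1 library and none inside peaks of both, so that window has no capitals. The windows of ALB and FGB held no base of any peak.

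AHSG encodes fetuin-A, a carrier protein of plasma that binds calcium phosphate. It had the strongest peaks of the 10 genes. The folds over background are the values of the authors' peak caller, and each is set here against the other peaks of the same list as a percentile. AHSG (gene at chr3:186613060-186621318) had a fold of 8.33 in replicate 2 (chr3:186612847-186613079) and 7.82 in replicate 3 (chr3:186612836-186613170), and no peak in replicate 1. Both folds ranked near the top of their lists, at the 93.4 and 93.6 percentiles. The summits lay 105 and 168 bp upstream of the start, and the peaks overlapped by 233 bp and covered the start in both libraries. In replicate 1 the nearest peak to the gene was 163 kb away.

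AMBP encodes a precursor that is cut into alpha-1-microglobulin and bikunin, an inhibitor of serine proteases. Its folds were 4.08 in replicate 1 (chr9:114078285-114078586), 6.005 in replicate 2 (chr9:114078263-114078457) and 3.94 in replicate 3 (chr9:114078341-114078591). The peak in replicate 2 was above the median of its list (68.8 percentile), whereas those in replicates 1 and 3 were low in theirs (19.5 and 13.3 percentiles). The summits of replicates 1 and 3 lay 14 bp apart, 257 and 243 bp upstream of the start, and that of replicate 2 lay nearer to it, 80 bp upstream. All 3 peaks overlapped one another, by 117 to 246 bp. A second place lay 2.52 to 2.63 kb upstream of the span in replicates 3 and 1, over the noncoding gene LOC107987120, with folds of 6.82 in replicate 3 (chr9:114080823-114081385) and 3.29 in replicate 1 (chr9:114080934-114081178). In replicate 3 this upstream peak was the higher of the pair, at the 86.9 percentile.

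SERPINA1 encodes alpha-1-antitrypsin, the main inhibitor of neutrophil elastase in plasma. The promoter table gives it a pair of starts, at 94390635 and 94388602 on the minus strand, and transcription in hepatocytes is known to begin at the downstream one, whereas macrophages use upstream starts. Peaks lay at the downstream start in replicate 2 (chr14:94388628-94388813, fold 3.93) and replicate 3 (chr14:94388721-94388876, fold 4.27). No library had a peak over the upstream window. The summits were 123 and 178 bp upstream of the downstream start. Both peaks were low in fold, at the 8.88 and 21.9 percentiles, and higher by −log10 q, at the 28.4 and 56.5 percentiles. In replicate 1 the nearest peak was 203 kb from the gene, beyond the upper annotated end.

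F2 encodes prothrombin, the precursor of the clotting protease thrombin. Its peaks were the farthest from a start among the 7 genes. They began at the same base in both libraries, chr11:46718232-46718594 in replicate 2 and chr11:46718232-46718500 in replicate 3, and their summits were 4 bp apart, 816 and 812 bp upstream of the start. The folds were 6.35 (75.5 percentile) in replicate 2 and 5.34 (59.4 percentile) in replicate 3, above the median of the list in both. The peaks ended 619 and 713 bp short of the start, and the promoter window of F2 held no base of a peak. With a window of 250 bp in place of 1000 bp, F2 was the gene that dropped out of the 7.

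C3 encodes the central protein of the complement cascade. With no strand for C3 in the table, its peaks are given from the upper annotated end of the gene (chr19:6677704-6720650), which they overlapped. The fold was 3.79 in replicate 2 (chr19:6720640-6720940) and 6.17 in replicate 3 (chr19:6720624-6720913), with summits 63 and 51 bp outside the end. The summits were 12 bp apart, yet the peaks ranked far apart in their lists, at the 7.45 and 78.2 percentiles. Replicate 1 had no peak at this end. Its nearest peak lay 2537 bp beyond it (chr19:6723187-6723402, fold 5.99), where replicate 3 also had one (chr19:6723140-6723415, fold 5.13). C3 in replicate 1 was thus outside the 1000 bp window at 2537 bp, and the outermost peak counted within the window was that of F2 in replicate 3, at 713 bp.

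VTN encodes vitronectin, an adhesive glycoprotein that binds integrins and the inhibitor PAI-1. Its peaks were nearly the same interval in replicate 1 (chr17:28370334-28370488) and replicate 3 (chr17:28370336-28370488), overlapping by 153 bp. They ended 27 and 29 bp short of the start, with summits 136 and 173 bp upstream. Both were below the median of their list, with folds of 4.63 (37.0 percentile) in replicate 1 and 3.86 (10.9 percentile) in replicate 3. In replicate 2, the list with the most peaks, the nearest peak was 533 kb away.

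**Figure D3:**
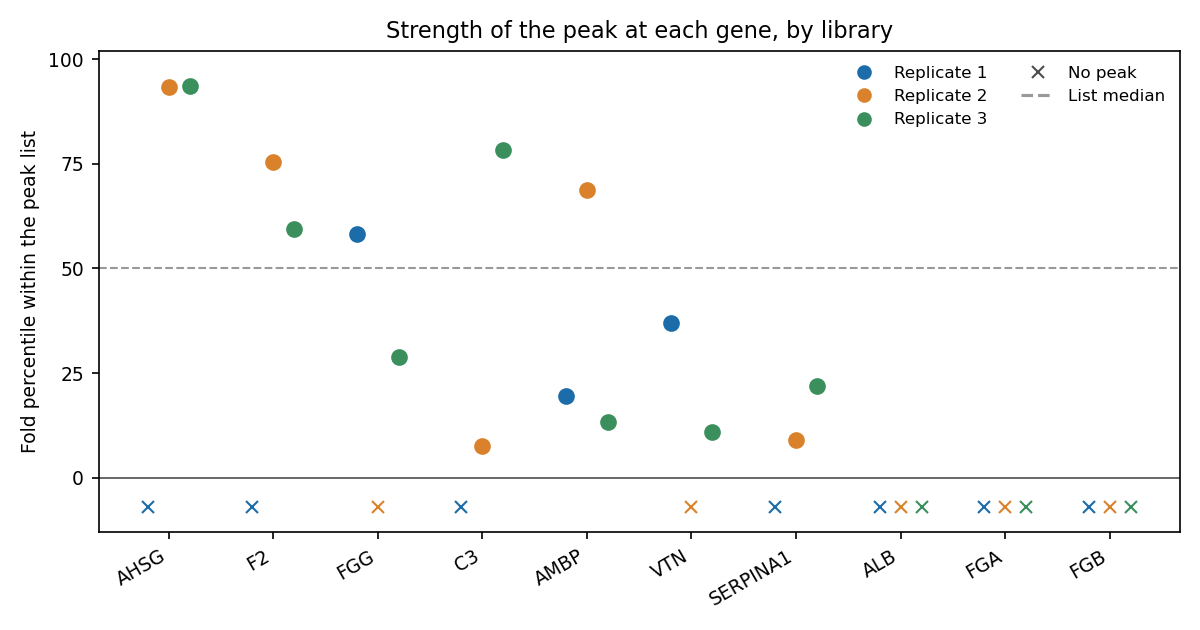
Percentile of the fold of the peak at each of the 10 plasma protein genes within the peak list of its library (y axis, 0 to 100), by replicate; crosses mark libraries without a peak and the dashed line the list median. AHSG sat at 93.4 and 93.6, C3 at 7.45 and 78.2, and ALB, FGA and FGB had crosses in all 3 libraries.

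Ranked by the mean percentile of fold over the libraries with a peak, the order was AHSG (93.5 ± 0.14, SD, n = 2), F2 (67.5 ± 11.4, n = 2), FGG (43.5 ± 20.7, n = 2), C3 (42.8 ± 50.02, n = 2), AMBP (33.9 ± 30.4, n = 3), VTN (24.0 ± 18.4, n = 2) and SERPINA1 (15.4 ± 9.20, n = 2). AHSG was above F2 in both libraries that held peaks of each. F2 was above FGG in replicate 3 (59.4 against 28.8), the only library that held peaks of each. Their remaining values came from different libraries, 75.5 for F2 in replicate 2 and 58.1 for FGG in replicate 1. From FGG to SERPINA1 the values of neighbours in the order overlapped. Of the 15 peaks, 7 were above the median of their list. The median percentile of the genes with a peak was 37.0 in replicate 1 (3 genes), 68.8 in replicate 2 (5 genes) and 28.8 in replicate 3 (7 genes), beside 44.8, 42.0 and 40.6 for all peaks within 1000 bp of a start in replicates 1, 2 and 3. The medians of the plasma protein genes were thus below those of start peaks in replicates 1 and 3 and above in replicate 2.

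Fibrinogen, the precursor of the fibrin clot, is assembled from 3 chains encoded side by side on chromosome 4 by FGB, FGA and FGG. FGB is separated from FGA by 10.3 kb, and FGA from FGG by 13.4 kb. FGG alone had peaks within 1000 bp. They were in replicate 1 (chr4:154612804-154613003, fold 5.25, 58.1 percentile) and replicate 3 (chr4:154612555-154612741, fold 4.47, 28.8 percentile). These peaks did not overlap: the summits were 240 bp apart, 314 and 74 bp upstream of the start, and only the peak of replicate 3 covered it. FGG was the exception among the 7 genes, since peaks of different libraries overlapped at 6 of them, a share of 85.7% against 86.8% (652 of 751) of all protein-coding genes with peaks in at least 2 libraries.

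The place in the fibrinogen cluster that all 3 libraries shared lay upstream of FGG, 5.01 to 5.04 kb beyond its start. The peaks there had folds of 5.91 in replicate 1 (chr4:154617669-154618099), 7.56 in replicate 2 (chr4:154617680-154618225) and 4.63 in replicate 3 (chr4:154617698-154618032), at the 74.0, 89.3 and 35.4 percentiles. In each of replicates 1 and 3 this peak was stronger than the one at the start of FGG. Replicate 2, which had no peak at that start, had 3 more in the cluster that the other libraries lacked. A pair lay between FGA and FGG, with folds of 7.19 (chr4:154595907-154596076) and 9.07 (chr4:154598080-154598315). The peak with a fold of 9.07 ranked at the 95.8 percentile, above any peak assigned to the 10 genes. The remaining one lay 1999 bp below FGB (chr4:154560701-154560981, fold 5.15). FGB was thus outside the 1000 bp window in replicate 2, at 1999 bp. FGA was 5.17 kb from its nearest peak in that library and over 20 kb from it in the others (22.1 kb in replicate 1 and 21.8 kb in replicate 3).

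**Figure D4:**
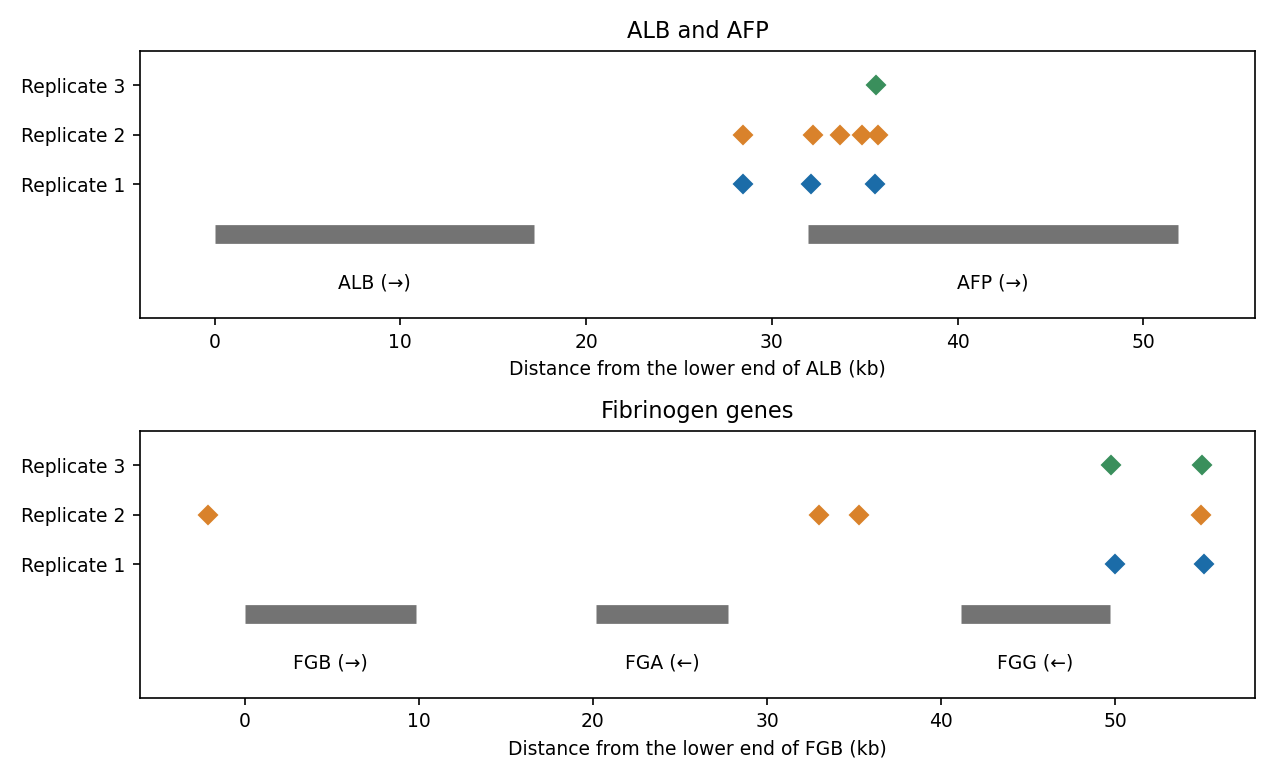
Summits of TAF2-V5 peaks (diamonds) in each replicate around ALB and AFP and around the fibrinogen genes, by distance in kb from the lower annotated end of ALB or FGB; grey bars are gene spans and arrows give the strand. No peak lay over ALB, FGA or FGB, and the summits above FGG formed a column shared by all 3 replicates.

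ALB encodes albumin, the most abundant protein of plasma. None of the 3 libraries had a peak over it, and none had one within 50 kb on the side of its start. All 9 peaks within 50 kb lay beyond its 3′ end, 3 in replicate 1, 5 in replicate 2 and 1 in replicate 3, over or near AFP, which encodes alpha-fetoprotein, the fetal counterpart of albumin, and begins 14.7 kb away. The nearest to ALB were at 11.3 kb in replicate 1 (chr4:73432742-73432971, fold 5.62) and 11.1 kb in replicate 2 (chr4:73432535-73432915, fold 5.81), with summits 3458 and 3472 bp upstream of the AFP start. Replicate 3 had its only peak 18.3 kb from ALB, inside AFP (chr4:73439742-73440145, fold 4.005), at a place where replicates 1 and 2 also had peaks. AFP thus had peaks in 3 libraries where ALB had none.

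The promoter windows of the 9 genes with a known start, 11 windows in all, were searched for fixed short motifs on both strands, of which 4 are reported, and the share of the 22198 windows of protein-coding genes that hold each motif is given beside it. The C/EBP motif TTGCNNAA was present in 5 of the 9 genes (AHSG, ALB, FGA, FGB and VTN). By window this was 6 of 11, against 8.69% of all windows. It was found in 3 of the 3 genes without a peak and in 2 of the 6 with peaks near the start. It began 125 bp before the start of ALB, 141 bp before that of FGA and 101 bp before the first annotated start of FGB. At AHSG the match TTATGCAA began 59 bp before the start, inside the peaks of both libraries. VTN had a pair of matches, of which TTGAGCAA, 47 bp before the start, was inside the peaks of both libraries and TTGCCCAA, 225 bp before it, was inside none. The HNF4 motif CAAAGTCCA was found in AHSG alone, as TGGACTTTG 179 bp before the start and inside both peaks. That is 1 of the 11 windows, against 0.356% of all windows. The TATA box TATAAA (9.47% of all windows) and the FOXA motif TGTTTAC (2.85%) had no match in any of the 11 windows, which says only that these letters were not in them. No match of one motif overlapped that of another. The windows of AMBP, F2, FGG and SERPINA1 held none of the motifs named here. GC content was 61.7% in the window of AMBP and 52.0% in that of FGG, and over all 11 windows it ran from 32.7% at FGB to 61.7%, against a median of 62.3% over the 22198 windows. It was 32.7 to 47.0% at ALB, FGA and FGB, and 49.3 to 61.7% at the 6 genes with peaks near the start. Whether GC content bears on the split of the C/EBP motif was not tested.

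Of 82 other genes for plasma proteins of the liver, 4 had a peak in at least 2 libraries (4.88%), close to the 3.76% of all protein-coding genes, and 74 had none in any library. By role, the count was 1 of 20 for coagulation and fibrinolysis, 0 of 25 for complement, 2 of 16 for carriers and 1 of 21 for acute phase proteins, protease inhibitors and related factors. C2, CFB and C8A of complement and the protease inhibitor A2M had a peak in 1 library each. The peak at CFB and one of the pair at C2 were the same interval between these genes in replicate 3 (chr6:31945749-31945961, fold 4.14). The 4 genes with a peak in at least 2 libraries were SERPINA5, AFP, TF and AGT. The peaks at SERPINA5, which encodes the protein C inhibitor, were in all 3 libraries with folds of 5.72, 7.26 and 5.60 in replicates 1, 2 and 3, and lay 903 to 907 bp beyond the 3′ end of the gene. At AGT, the gene for angiotensinogen, the strongest peaks had folds of 10.1 in replicate 2 and 7.48 in replicate 3, with summits 5346 and 5365 bp downstream of the nearest annotated start. At TF, the transferrin gene, peaks with folds of 5.75 in replicate 1 and 5.25 in replicate 2 had summits 3634 and 3641 bp upstream of the nearest start in the table. AFP alone of the 57 of these genes with a known start had peaks within 1000 bp of it in at least 2 libraries. These AFP peaks did not overlap and were low in fold, at the 5.53 percentile in replicate 1 and the 17.3 percentile in replicate 2. Their −log10 q values were 1.32 and 2.43. The count of 1 of 57 was near the 1.39% of all protein-coding genes with a start, whereas it was 6 of 9 of the plasma protein genes described above. Both sets were listed with earlier results known, so this contrast is a description and may follow from the choice of genes. As a description, 0 of 30 genes for secreted proteins of other tissues had a peak in at least 2 libraries, and TG, the thyroglobulin gene, had one in replicate 2 alone. For so small a set, a count of 0 is near the 3.76% of all protein-coding genes. The median span of these genes was also shorter, 7668 bp against 24150 bp.

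Of 10 regulators of hepatocyte genes, 4 had a peak in at least 2 libraries (HNF4A, FOXA1, FOXA3 and PROX1), beside 3.76% of all protein-coding genes. Of the 7 with a known start, 0 had peaks within 1000 bp of it in at least 2 libraries. The share of all protein-coding genes with a start in the table was 1.39%, and for so small a set a count of 0 is near it. The spans of HNF4A and PROX1 were long, 78898 and 58360 bp, against a median of 24150 bp over all protein-coding genes. HNF4A, which encodes a nuclear receptor that binds many plasma protein promoters, had overlapping peaks in 3 libraries with folds of 5.21, 5.52 and 5.29 in replicates 1, 2 and 3 (chr20:44394501-44395035 in replicate 1). Their summits lay 6492, 6593 and 6481 bp upstream of the nearest start in the table. A second place inside HNF4A also had overlapping peaks in 3 libraries, with folds of 3.26, 3.14 and 5.37 (chr20:44411364-44411614 in replicate 1). FOXA3 had peaks with folds of 6.61, 5.83 and 5.28 in replicates 1, 2 and 3. They lay 66, 73 and 105 bp beyond the 3′ end of the gene. The peaks of FOXA1 and PROX1 in different libraries did not overlap. NR1H4, a bile acid receptor gene, had a peak in replicate 2 alone, CEBPB in replicate 3 alone, and CEBPA, FOXA2 and ONECUT1 in none.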

How the data were processed

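ChIP-seq peak lists of 3 V5 libraries on GRCh38, per the submitters' processing notes, were used; the 3 controls entered no result. Which aligner, caller, cut-off and control the authors used is not given in the sources used here. The authors called peaks separately in each library and deposited 1599 peaks for replicate 1, 2557 for replicate 2 and 1887 for replicate 3. Fold is a deposited linear ratio over the caller's background. The deposited −log10 p and −log10 q and the deposited score of each peak came from the authors' caller, and the score was not used. No deposited value gives read counts, so depth is unknown. The labels do not say that the replicates are separate cultures, so their spread may be technical.

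Gene spans came from a RefSeq gene table of GRCh38.p14 and starts from a RefSeq promoter table of the same build. Of 20046 protein-coding genes, 19983 on chromosomes with peaks were used, 15812 of them with a start. A gene was counted where at least 2 libraries had a peak that overlapped the gene or came within 1000 bp of it. Percentiles are ranks within a list. No test was run. Some items of the lists are not reported here. The members and lists were chosen with earlier results of these data known. The genes named were the 10 members, listed genes with peaks in at least 2 libraries and genes within 50 kb of a member. The genes with a peak in 1 library or none were chosen once values were known. The overlap code was tested on simulated peaks. Alternatives covered the window, the summit, stricter peaks and each replicate left out. Calculations used Python 3.11.15, numpy 2.4.6, pandas 2.3.3 and matplotlib 3.10.9.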

Additional observations from a re-analysis of the deposited data

How the results depend on the processing

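The count of 7 plasma protein genes with a peak in at least 2 libraries was 7 with windows of 2000 or 5000 bp. The shares of all protein-coding genes there were 3.95% and 4.38%. With the summit inside the window the count was 7, against 3.72%, and with 250 bp it was 6, against 3.59%. With a window of 0 bp the count was 4, against 3.25% of all protein-coding genes. That window gave 0 genes in all 3 libraries, 1 in replicate 1 and 4 in replicate 3. In at least 2 libraries, 2 genes had peaks covering the start. With a window of 5000 bp, 2 genes had peaks in all 3 libraries. At 5000 bp, 9 other plasma protein genes had them in at least 2 libraries, beside the 4.38% of all protein-coding genes. Peaks with −log10 q of at least 3 gave 4 genes, against 2.9% of all protein-coding genes. With −log10 q of at least 5 the count was 2 (AHSG and F2), also within 1000 bp of a start, against 1.91% of all protein-coding genes. The peaks of F2 ended 619 and 713 bp short of its start. At this cut-off the count was 0 in all 3 libraries and 0, 3 and 4 in replicates 1, 2 and 3. Among other plasma protein genes it was 2. With a fold of at least 5 the count was 2, also within 1000 bp of a start, against 2.04% of all genes. It was 0 in all 3 libraries and 1, 3 and 3 in replicates 1, 2 and 3. The strongest 1000 peaks of each list gave the same 2 genes, also within 1000 bp of a start, against 2.04% of all genes. The count was 0 in all 3 libraries and 1, 3 and 4 in replicates 1, 2 and 3. Leaving out each replicate gave 1 to 5 genes with peaks in both remaining libraries, against 2.26 to 2.81% of all genes. Within 1000 bp of a start it gave 1 to 4. Ranked by −log10 q in place of fold, the mean percentile was 84.8 at AHSG, 21.3 at FGG and 42.4 at SERPINA1, against 93.5, 43.5 and 15.4 by fold. Of the alternatives tried, 78 of the values stayed within 1.5 times the count, or within 1 SD of the percentile, and 41 did not. No paired analysis was possible because the controls have no peak lists here. The lists give no depth, so the lack of a peak in a library says only that none passed the authors' threshold there.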
